A study of Mus musculus with 6 samples.

Results

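The genes described here are 38 that encode DNA damage kinases, sensors of DNA breaks, and the proteins of homologous recombination, Fanconi crosslink repair and end joining, measured in hematopoietic stem cells (HSCs) with and without the ribosomal protein Rpl22. They were taken as the rows of the deposited count table whose symbols equal a list of 38 symbols, and all 38 were found among its 34573 genes. All 38 also had enough reads to be tested, so no gene of the list was lost to the filter on low counts.

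RNA sequencing was performed on 3 Rpl22-/- and 3 Rpl22+/+ samples of HSCs from the bone marrow of young adult mice. Rpl22-/- mice lack Rpl22 from the germline on, in every tissue and not in HSCs alone, whereas Rpl22+/+ mice carry both copies, and the strain had been backcrossed to C57BL/6. The labels give the gate as lineage-negative, CD48- and CD150+, the study also defines its HSCs as Sca-1+ and c-Kit+, and cells were sorted straight into lysis reagent, and libraries were made from polyadenylated RNA. No source used here says whether each library came from its own animal, so p-values measure only the spread between these samples, which may be technical.

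The reads counted on genes numbered between 9321123 and 13385850 per library. The targeted gene, Rpl22, had between 449 and 546 reads in the libraries labelled Rpl22-/- and between 5031 and 7001 in those labelled Rpl22+/+. All 12 HSC markers were detected, the T and B cell genes Cd3e and Ms4a1 had 0 reads in every library, and 3 marker groups of other cells moved with genotype or with a library. The summed level of 5 megakaryocyte genes was 742 to 921 CPM in Rpl22-/- HSCs and 502 to 667 in Rpl22+/+ HSCs, that of 6 progenitor and lymphoid genes was 42.4 to 48.9 CPM and 50.4 to 63.8 CPM, and the granulocyte gene Mpo had 1218 reads in Rpl22-/- replicate 2. Their part in the values below was not tested. Here and below CPM is the count scaled to a common library size with edgeR's TMM factors. In RNA from a pool of sorted cells, fewer cells of a type and less RNA per cell cannot be told apart.

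A break in both DNA strands is bound by the complex of MRE11, RAD50 and NBS1, which activates the kinase ATM, while exposed stretches of unpaired DNA at stalled replication forks recruit the kinase ATR. Broken ends are then rejoined directly by end joining, which works in resting cells, or copied from the sister chromatid by homologous recombination in S and G2 phase. Crosslinks between the strands are handled by the Fanconi pathway, in which a core complex attaches ubiquitin to FANCD2 and FANCI, and whose inherited loss causes bone marrow failure.

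Between the genotypes most of these genes stayed within a narrow range. A single gene of the 38 passed an adjusted p of 0.05, Fancl, which encodes the ubiquitin ligase of the Fanconi core complex and fell by 29.7%. That is 1 of 38 (2.63%), against 5.57% of the 14004 genes tested, and against 2.29% when all genes are counted in the lower direction only. The log2 fold changes, given throughout as Rpl22-/- over Rpl22+/+ and for single genes with the standard error (SE), ran from −0.51 to 0.18. For all 38 genes the 95% interval of the change lay within 1 log2 unit of zero in either direction, and for 30 it lay within 0.5, so changes above a factor of 2 were outside the intervals of every gene. The median was −0.05 over the 38 genes and −0.01 over all genes tested, and 25 of the 38 values were negative (65.8%, against 51.3% of all genes). At an unadjusted p below 0.05, 6 of the 38 genes were lower in Rpl22-/- HSCs (15.8%, against 10.7% of all genes) and 0 were higher (against 11.6% of all genes). Counting libraries instead of p-values, 9 of the 38 genes had all 3 Rpl22-/- libraries below all 3 Rpl22+/+ libraries (23.7%, against 13.6% of all genes), and 0 had them all above (against 13.3%). DESeq2 and limma-voom also called Fancl alone.

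**Figure D1:**
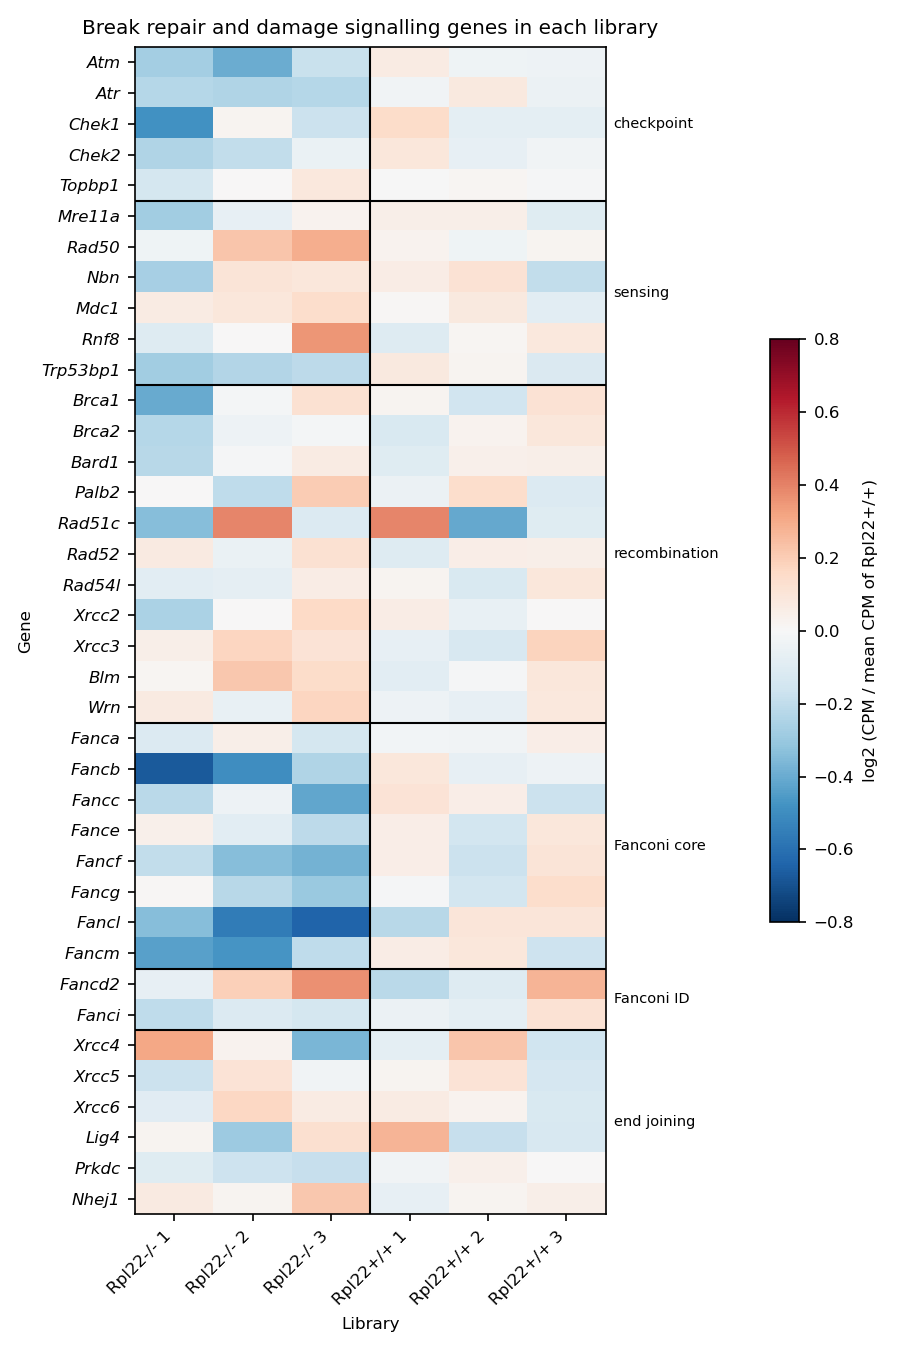
Level of each of the 38 genes in each library as the log2 ratio of its CPM to the mean CPM of the 3 Rpl22+/+ libraries (color), with genes in rows grouped by role and libraries in columns. The rows of the 8 Fanconi core genes are mostly blue in the Rpl22-/- columns, while the rows of the 11 homologous recombination genes hold both colors.

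**Figure D2:**
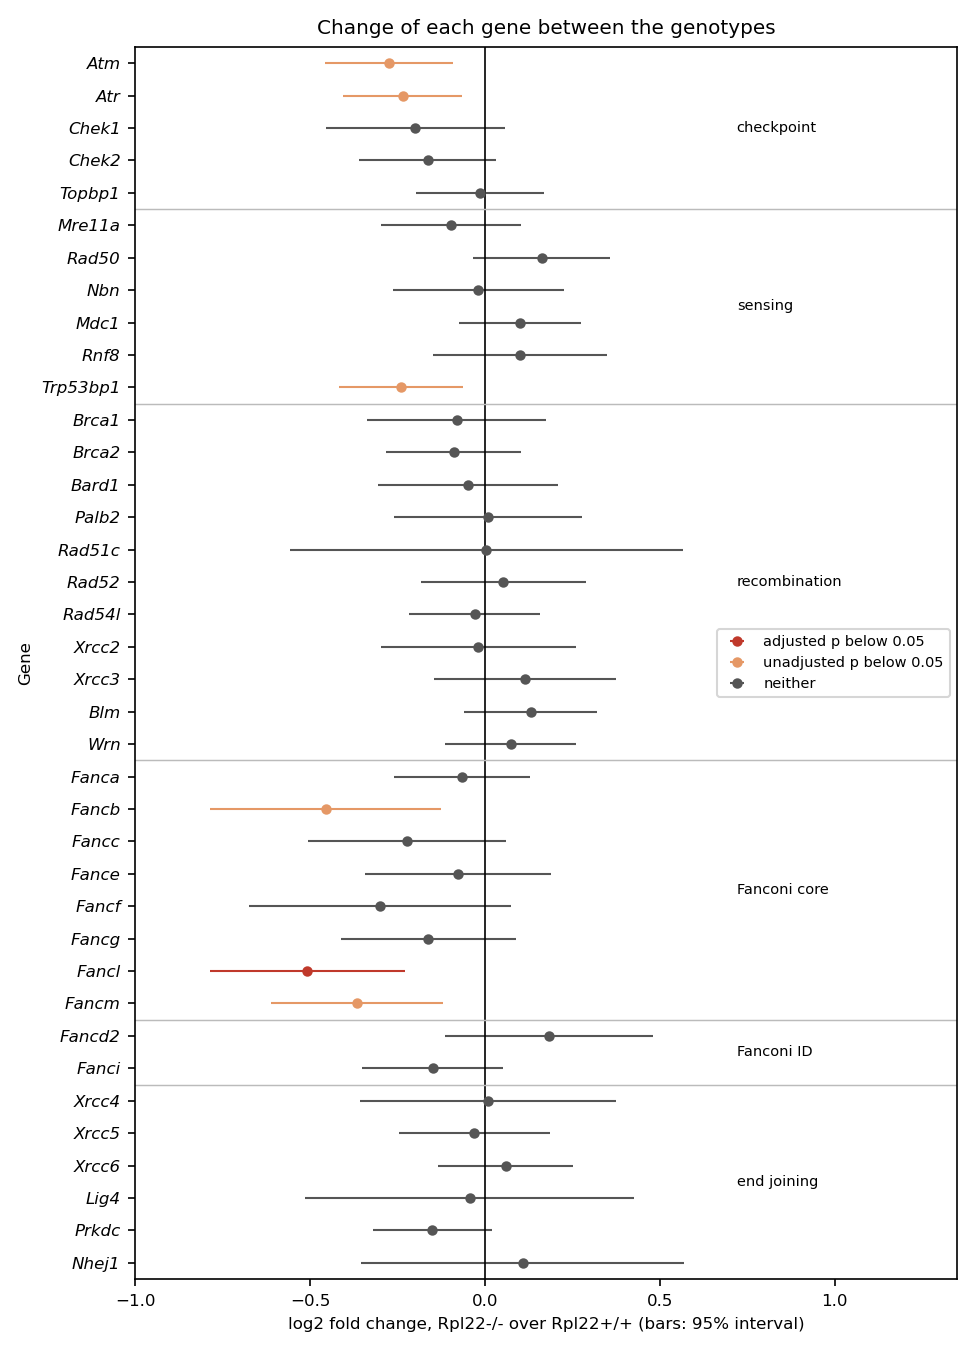
Log2 fold change of each gene, Rpl22-/- over Rpl22+/+ (points), with its 95% interval (bars), grouped by role. Fancl is the single gene past an adjusted p of 0.05, 5 more have an unadjusted p below 0.05, and all 6 of these points lie below zero.

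The Fanconi core complex had the lowest median of the 6 role groups. All 8 of its genes had negative values (against 51.3% of all genes), with a median of −0.26 and a range of −0.51 to −0.07. The adjusted test was passed by 1 of the 8 (12.5%, against 5.57% of all genes). All 8 stayed negative under each of 18 alternative ways of processing the counts, including each normalization and each library left out. These alternatives reuse the same libraries and so are not independent of each other. The values nearest zero were −0.0009 for Fanca, with the length trend removed, and −0.0167 for Fance, without Rpl22-/- replicate 3. Summed over the 8 genes, the level was 216, 213 and 203 CPM in Rpl22-/- replicates 1 to 3 and 248, 244 and 250 CPM in Rpl22+/+ replicates 1 to 3, so the summed levels of the genotypes did not overlap.

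Fancl lies on the forward strand of chromosome 11, at chr11:26386135-26471876 of GRCm38. Its level was 25.7, 22.1 and 20.9 CPM in Rpl22-/- replicates 1, 2 and 3 and 28.0, 34.9 and 34.9 CPM in Rpl22+/+ replicates 1, 2 and 3, from between 265 and 435 reads per library. The genotypes did not overlap, and the closest pair was replicate 1 of each genotype. Its log2 fold change was −0.51 (SE 0.131, 95% interval −0.79 to −0.23, adjusted p = 0.0344 in edgeR's quasi-likelihood test, adjusted by Benjamini-Hochberg over the 14004 genes). The value was below zero in all 18 alternatives, between −0.61 and −0.39, and passed the test in 11 of them. It did not pass without Rpl22-/- replicate 2 (adjusted p = 0.0897), Rpl22-/- replicate 3 (0.14), Rpl22+/+ replicate 2 (0.135) or Rpl22+/+ replicate 3 (0.123), nor once a trend on GC content was removed (0.114). Of its exon bases, 13.7% lie under exons of Vrk2 on the opposite strand, and Vrk2 itself gave −0.06 on the log2 scale (adjusted p = 0.817 in edgeR's quasi-likelihood test). Whether reads from the shared stretch were counted by strand is not given in the sources used here.

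Fancm encodes the DNA translocase that anchors the core complex at stalled forks. It had 30.4, 29.6 and 35.6 CPM in Rpl22-/- replicates 1 to 3 and 42.8, 43.7 and 36.5 CPM in Rpl22+/+ replicates 1 to 3. The genotypes did not overlap, though Rpl22-/- replicate 3 and Rpl22+/+ replicate 3 lay within 1 CPM of each other. The log2 fold change was −0.37 (SE 0.116, adjusted p = 0.0749 in edgeR's quasi-likelihood test).

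Fancb encodes a partner that sits with FANCL in the catalytic part of the core complex. Its level was 9.74, 11.0 and 13.1 CPM in Rpl22-/- replicates 1 to 3 and 16.5, 14.8 and 15.1 CPM in Rpl22+/+ replicates 1 to 3. Again all Rpl22-/- libraries were the lower ones, with replicate 3 the highest of them. Its log2 fold change of −0.46 (SE 0.156, adjusted p = 0.095 in edgeR's quasi-likelihood test) rested on 125 to 215 reads per library.

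**Figure D3:**
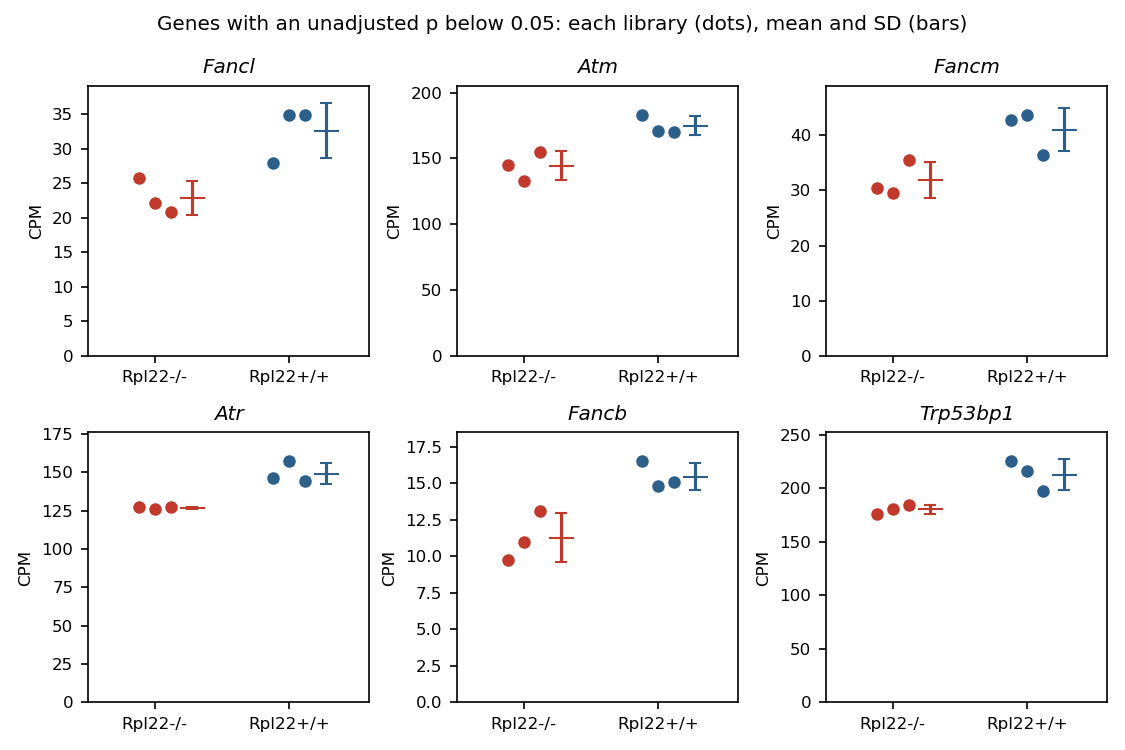
CPM of the 6 genes with an unadjusted p below 0.05 in each library (dots), with mean and SD over the 3 libraries of each genotype (bars), on axes that start at zero. In every panel the 3 Rpl22-/- dots lie below the 3 Rpl22+/+ dots, and for Fancm the nearest dots are 35.6 and 36.5 CPM.

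The other 5 core genes did not pass the test, with adjusted p-values of 0.337 or more in edgeR's quasi-likelihood test. Fancf, which encodes an adaptor that holds the complex together, had 7.37 to 8.34 CPM in Rpl22-/- HSCs and 8.51 to 10.3 CPM in Rpl22+/+ HSCs, without overlap, and a log2 fold change of −0.30. Exons of Gas2 on the opposite strand cover 15.0% of its exon bases, and 18.6% of those of Fancc lie under 2010111I01Rik, which gave 0.03 and −0.12. Fancc had a value of −0.22, Fancg −0.16, Fance −0.08 and Fanca −0.07, each with libraries of the genotypes intermixed. FAAP100, which joins FANCB and FANCL, FAAP24, the partner of FANCM, and UBE2T, the conjugating enzyme that FANCL works with, are further proteins of the same reaction. Their genes gave log2 fold changes of −0.06 for Faap100, 0.40 for Faap24 (unadjusted p = 0.031, adjusted p = 0.174 in edgeR's quasi-likelihood test) and −0.14 for Ube2t.

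The 2 substrates of the core complex, which bind each other as a clamp on DNA, had values of opposite sign. Fancd2 had 32.7, 39.0 and 44.1 CPM in Rpl22-/- replicates 1 to 3 and 29.4, 31.9 and 41.3 CPM in Rpl22+/+ replicates 1 to 3, so the genotypes overlapped. Its value of 0.18 (SE 0.14, adjusted p = 0.477 in edgeR's quasi-likelihood test) was the highest of the 38. Fanci had 45.8, 49.0 and 47.9 CPM against 51.1, 50 and 57.3 CPM. Its Rpl22-/- libraries were all the lower ones, with the nearest at 49.0 and 50 CPM, and its value of −0.15 did not pass the test (adjusted p = 0.382 in edgeR's quasi-likelihood test). Of its exon bases, 16.0% lie under Polg on the opposite strand, which gave a value of −0.20 (adjusted p = 0.165 in edgeR's quasi-likelihood test). Usp1 and Wdr48, whose products form the enzyme that removes ubiquitin from FANCD2 and FANCI, gave 0.19 and −0.12, neither past the test.

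The promoters of these genes share a feature that the choice of genes did not use. In the 300-base windows that RefSeq gives for GRCm38.p6, from 250 bases before each start to 50 after it, letters that resemble an E2F site were searched on both strands as TTCCCGC, as TTCGCGC, as TTGCCGC or as TTGGCGC. E2F proteins are transcription factors that drive genes of DNA replication. Windows were listed for 32 of the 38 genes, and 20 of them (62.5%) held such letters, against 9.69% of all 27025 promoters and 17.4% of the 9347 promoters of tested genes. CCAAT, which can overlap TTGGCGC on its reverse strand, was found in 18 of the 32 (56.2%, against 37.9% of all promoters and 38.9% of those of tested genes), and TTTGAA, the letters of the cell cycle element called CHR, in 2 of the 32 (6.25%, against 18.1% of all promoters and 11.9% of those of tested genes). The median log2 fold change was −0.06 for the 20 genes with them and −0.07 for the 12 without. A match is a description of letters and not evidence of a binding site. The 250 bases before the start are shown for the 4 Fanconi core genes with an E2F-like match in that stretch, since this group had the lowest median change, with the match in capitals and each sequence read 5′ to 3′ along the strand of its gene. They are Fancb at chrX:164980342-164980591, forward strand, Fancf at chr7:51862268-51862517, reverse strand, Fancg at chr4:43010302-43010551, reverse strand, and Fancm at chr12:65075353-65075602, forward strand.
Fancb: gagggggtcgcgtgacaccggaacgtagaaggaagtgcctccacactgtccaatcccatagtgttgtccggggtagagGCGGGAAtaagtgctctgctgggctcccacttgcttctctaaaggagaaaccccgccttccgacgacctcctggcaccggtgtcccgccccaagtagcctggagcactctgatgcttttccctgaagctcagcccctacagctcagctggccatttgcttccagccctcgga
Fancf: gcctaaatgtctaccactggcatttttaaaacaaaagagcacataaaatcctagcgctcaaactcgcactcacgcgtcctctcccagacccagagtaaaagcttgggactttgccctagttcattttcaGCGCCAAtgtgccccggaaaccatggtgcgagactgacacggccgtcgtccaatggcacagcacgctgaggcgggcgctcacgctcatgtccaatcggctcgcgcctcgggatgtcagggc
Fancg: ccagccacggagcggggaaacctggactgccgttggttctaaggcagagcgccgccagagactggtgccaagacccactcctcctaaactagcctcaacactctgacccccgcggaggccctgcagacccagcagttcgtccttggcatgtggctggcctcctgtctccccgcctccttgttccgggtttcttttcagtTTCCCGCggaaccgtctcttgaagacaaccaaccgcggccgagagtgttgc
Fancm: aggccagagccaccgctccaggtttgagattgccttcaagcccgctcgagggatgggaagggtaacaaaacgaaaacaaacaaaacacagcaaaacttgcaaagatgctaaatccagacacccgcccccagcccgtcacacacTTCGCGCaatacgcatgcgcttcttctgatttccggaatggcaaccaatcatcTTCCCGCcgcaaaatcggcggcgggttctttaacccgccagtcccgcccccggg
The match begins 172 bases before the start in Fancb, 121 in Fancf and 51 in Fancg, and Fancm has 2 matches, 107 and 54 bases before its start. In Fancf the capitals run into a CCAAT. Fancl, the gene that passed the test, had none of the searched E2F-like letters in its window, nor did Fanca, Fancc or Fance. The Fancl window begins downstream of the gene start given above. That of Fancc, at chr13:63431746-63431995, lies inside the gene, which spans chr13:63285043-63497278 on the reverse strand.

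The checkpoint group holds the kinases ATM and ATR, their effector kinases CHK1 and CHK2, and TOPBP1, the activator of ATR. All 5 values were negative (against 51.3% of all genes), with a median of −0.20, and 0 passed the adjusted test of edgeR, DESeq2 or limma-voom. At an unadjusted p below 0.05, 2 of the 5 were lower (40.0%, against 10.7% of all genes). The sign was less stable than in the Fanconi core group. Topbp1 turned positive in 5 of the 18 alternatives, up to 0.0768, and the other 4 stayed negative. These 5 were the fit without Rpl22-/- replicate 1 and those with trends on length, GC content or both removed. With both trends removed the median of the group was −0.0843. Atm lies on the reverse strand at chr9:53439149-53536740. It had 145, 133 and 155 CPM in Rpl22-/- replicates 1 to 3 and 183, 171 and 170 CPM in Rpl22+/+ replicates 1 to 3. The highest Rpl22-/- library was thus below the lowest Rpl22+/+ library, and its log2 fold change was −0.27 (SE 0.0862, adjusted p = 0.0723 in edgeR's quasi-likelihood test). Atr, on the forward strand at chr9:95857597-95951781, had 127, 126 and 127 CPM in Rpl22-/- replicates 1 to 3 and 146, 157 and 144 CPM in Rpl22+/+ replicates 1 to 3. The 3 Rpl22-/- values were nearly the same, with an SD of 0.849 CPM, and lay below all 3 controls. Its log2 fold change was −0.24 (SE 0.08, adjusted p = 0.0934 in edgeR's quasi-likelihood test). With library size alone as the scale, which moved the median of all genes to −0.05, the calls included Atm (adjusted p = 0.0436), Atr (0.0488) and Trp53bp1 (0.0474) beside Fancl, that is 4 of the 38, with 850 of all 14004 genes called (6.07%).

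Chek2 had a value of −0.16 (53.5 to 60.8 CPM in Rpl22-/- HSCs and 60.4 to 67.3 CPM in Rpl22+/+ HSCs), and its groups overlapped by 1 pair of libraries. Chek1 had 42.0, 59.7 and 52.0 CPM in Rpl22-/- replicates 1 to 3 and 65.1, 55.5 and 55.5 CPM in Rpl22+/+ replicates 1 to 3. Replicate 1 was the lowest library of the Rpl22-/- group and replicate 1 the highest of the Rpl22+/+ group, and without that Rpl22-/- library the value moved from −0.20 to −0.07. Topbp1 was nearly level, with a mean of 306 CPM (SD 24.2, n = 3) without Rpl22 and of 309 CPM (SD 2.37, n = 3) in controls, a value of −0.01 (95% interval −0.20 to 0.17).

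Among the genes that sense and mark breaks, 3 values were positive and 3 negative, the median was 0.04, and 0 passed the adjusted test of edgeR, DESeq2 or limma-voom. The exception to this spread at an unadjusted p below 0.05 was Trp53bp1, which encodes 53BP1, the chromatin protein that shields ends from resection and steers them to end joining. It lies on the reverse strand at chr2:121193281-121271407 and had 176, 181 and 184 CPM in Rpl22-/- replicates 1 to 3 and 225, 216 and 197 CPM in Rpl22+/+ replicates 1 to 3. No library of either genotype reached into the other group. Its log2 fold change was −0.24 (SE 0.0833, adjusted p = 0.0993 in edgeR's quasi-likelihood test). Tubgcp4, whose exons cover 15.0% of its exon bases from the opposite strand, had a like value of −0.22 (adjusted p = 0.143 in edgeR's quasi-likelihood test), and how far shared reads link them was not tested.

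Rad50, the ATPase of the end-binding complex, had 135, 161 and 169 CPM in Rpl22-/- replicates 1 to 3 and 141, 135 and 140 CPM in Rpl22+/+ replicates 1 to 3. Replicates 2 and 3 of Rpl22-/- were above all controls and replicate 1 was not, and the value of 0.16 did not pass the test (adjusted p = 0.319 in edgeR's quasi-likelihood test). Its partners Mre11a, the nuclease, and Nbn, which binds ATM, had values of −0.10 and −0.02. Mdc1, the scaffold that reads phosphorylated H2AX, gave 0.10, and Rnf8, the ligase it recruits, 0.10.

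The homologous recombination genes differed little between genotypes. The 11 values ranged from −0.09 to 0.13 with a median of 0.00, 6 were positive and 5 negative, and 0 passed the adjusted test of edgeR, DESeq2 or limma-voom or reached an unadjusted p below 0.05. For 10 of the 11 the 95% interval lay within 0.5 log2 units of zero. Blm, the helicase that dissolves crossed strands, had 70.0, 80.5 and 76.7 CPM in Rpl22-/- replicates 1 to 3 and 65.4, 68.8 and 73.6 CPM in Rpl22+/+ replicates 1 to 3. The groups overlapped through the first Rpl22-/- library, and its value of 0.13 had the smallest adjusted p of the group (0.421 in edgeR's quasi-likelihood test). Brca2, a tumor suppressor needed for strand invasion, had 92.4 to 107 CPM in Rpl22-/- HSCs and 99.4 to 115 CPM in Rpl22+/+ HSCs, a value of −0.09 (95% interval −0.28 to 0.10). Xrcc3, which acts in strand exchange, had 27.0 to 29.4 and 23.9 to 29.5 CPM, a value of 0.11. Brca1 and its partner Bard1 gave −0.08 and −0.05, Palb2, which links them to BRCA2, 0.01, the annealing factor Rad52 0.05, the motor protein Rad54l −0.03, the helicase Wrn 0.07, and the strand exchange factor Xrcc2 −0.02. Rad51c was counted with only 48 to 91 reads per library. Its value of 0.00 therefore carried an interval of −0.56 to 0.57, the widest of the group.

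In the end joining group 3 values were positive and 3 negative, the median was −0.01, and 0 passed the adjusted test of edgeR, DESeq2 or limma-voom or an unadjusted p of 0.05. Prkdc, the catalytic subunit of the DNA-dependent kinase, had 102, 97.1 and 95.9 CPM in Rpl22-/- replicates 1 to 3 and 107, 112 and 109 CPM in Rpl22+/+ replicates 1 to 3. The genotypes did not overlap, yet the value was small at −0.15 (adjusted p = 0.284 in edgeR's quasi-likelihood test). Xrcc5 and Xrcc6, which encode the Ku ring that slides onto ends, had values of −0.03 and 0.06. Xrcc6 had 98.7 to 118 CPM in Rpl22-/- HSCs and 96.7 to 110 CPM in Rpl22+/+ HSCs. Nhej1, which encodes the XLF filament protein, had 4.91 to 5.62 and 4.61 to 4.99 CPM, a value of 0.11 with an interval of −0.35 to 0.57. Lig4, the ligase that seals the ends, gave −0.04 and its partner Xrcc4 0.01.

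Ratios within a library were also compared for 8 pairs chosen after the values were seen. These were partners in 1 complex and the kinase pairs Chek1 with Chek2 and Atm with Atr. None passed: with 3 samples against 3 the smallest exact two-sided permutation p is 0.1, and Benjamini-Hochberg adjusted values were 0.4 or more. The log2 ratio of Mre11a to Rad50 was −0.73 ± 0.0229 (SD, n = 3) in Rpl22-/- HSCs and −0.47 ± 0.0991 (SD, n = 3) in Rpl22+/+ HSCs (exact permutation p = 0.1, adjusted 0.4). For Xrcc5 to Xrcc6 the difference between genotypes was −0.09 with the same p-values, and for Fancd2 to Fanci it was 0.33 (exact permutation p = 0.2, adjusted 0.533).

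Levels per length, as counts per base of the longest coding transcript scaled to the same total in each library (TPM), spanned 50.2-fold in Rpl22+/+ HSCs. TPM was computed to set the order of the genes and not to compare genotypes. Topbp1 was the highest at 140 ± 3.06 TPM (SD, n = 3) in Rpl22+/+ HSCs and 130 ± 11.0 TPM (SD, n = 3) in Rpl22-/- HSCs, followed by Xrcc6 at 75.2 ± 3.3 and Rad54l at 71.4 ± 6.3 TPM (SD, n = 3) in Rpl22+/+ HSCs. The lowest were Lig4 at 2.79 ± 0.449, Rad51c at 3.2 ± 0.862 and Nhej1 at 10.9 ± 0.695 TPM (SD, n = 3) in Rpl22+/+ HSCs. The median of the 38 was 29.1 TPM, beside 26.8 TPM for all genes tested, and 21 were above the latter. Most neighbours in this order could not be told apart, since 32 of the 37 neighbouring pairs overlapped between their Rpl22+/+ libraries. The order also depends on the length used: over all annotated exons joined, Mdc1 was first, Topbp1 second and Rad54l moved from rank 3 to rank 13.

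**Figure D4:**
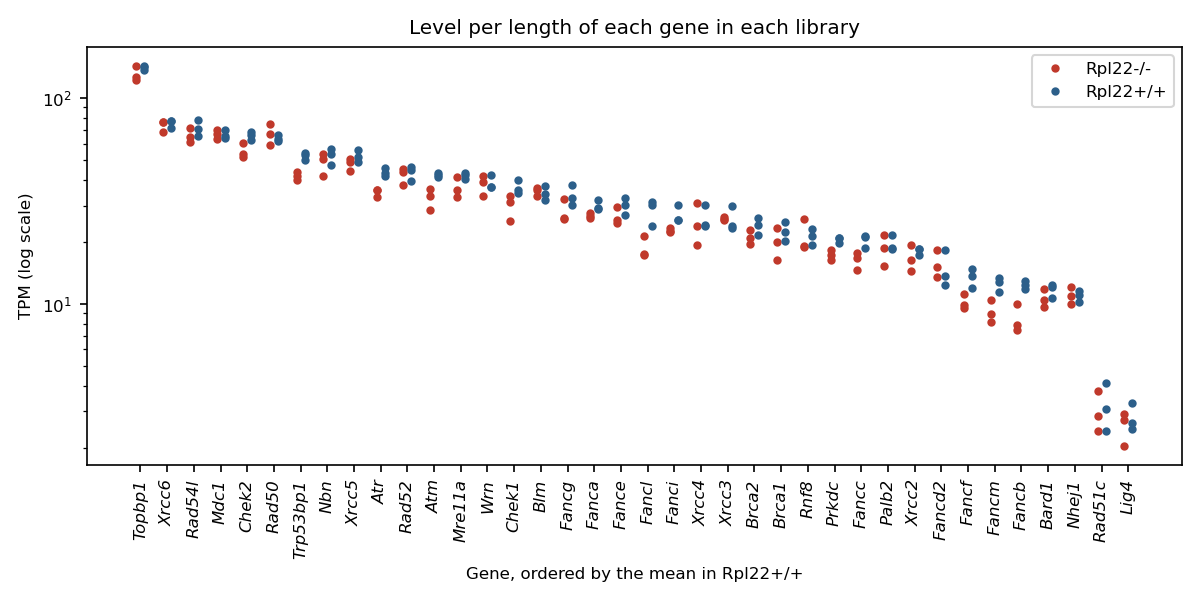
TPM over the longest coding transcript (log axis) of each gene in each library (dots, colored by genotype), ordered by the mean of the 3 Rpl22+/+ libraries. Topbp1 stands highest at 140 TPM, and Rad51c and Lig4 stand apart at the low end at 3.2 and 2.79 TPM.

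The spread between libraries touched these genes unevenly. Rpl22-/- replicate 1 was the lowest of its genotype for 22 of the 38 genes, against 8 for each of the other Rpl22-/- libraries. The same count was not made over all genes tested. The summed level of the 38 genes was 2470 CPM in Rpl22-/- replicate 1 and 2630 and 2730 CPM in replicates 2 and 3, beside 2700 to 2740 CPM in Rpl22+/+ HSCs. Without that library the median over the 38 genes was −0.0043, 19 of the values were negative, and the counts at an unadjusted p below 0.05 were 6 lower and 2 higher, with 13.3% and 14.4% of all genes passing in that fit. Proliferation markers also differed between Rpl22-/- libraries: the summed level of 17 G2 and mitosis genes was 2370, 3080 and 3540 CPM in Rpl22-/- replicates 1 to 3 and 2670 to 2960 CPM in Rpl22+/+ HSCs, and that of 19 S phase genes 3060, 4140 and 3490 CPM and 3210 to 3570 CPM. Its part in the values of the repair genes was not tested.

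Base composition moved with the change across all genes. Transcripts of the 38 genes had a median GC content of 46.0%, against 49.7% for the 13358 tested genes with an annotated transcript, and 29 of the 38 lay below the latter. In the decile of all genes with the lowest GC content the median log2 fold change was −0.16, and in the decile with the highest it was 0.08. All 6 genes with an unadjusted p below 0.05 lay below the median GC content of all genes. Across the 38 genes Pearson's r between GC content and log2 fold change was 0.209, and across the 13358 it was 0.212, across genes that all come from the same 6 libraries and so are no independent replicates. When each library's trend on GC content was removed, 20 of the 38 values were negative and the counts at an unadjusted p below 0.05 were 6 lower and 2 higher, with 8.77% of all genes lower and 11.0% higher. The value of Fancl became −0.39 (unadjusted p = 0.00926), Fancb −0.34, Fancm −0.31, Trp53bp1 −0.23 and Atm −0.18, all with an unadjusted p below 0.05 in edgeR's quasi-likelihood test, while Atr became −0.11 (unadjusted p = 0.183). All 8 Fanconi core genes stayed negative, with a median of −0.29. The genes are also long, with a median of 5763 exon bases against 4233, and with the trends on length and GC content both removed 4 of the 38 were lower at an unadjusted p below 0.05 (Fancb, Fancf, Fancl and Fancm) and 3 higher (Blm, Rad50 and Wrn), beside 8.7% and 11.0% of all genes. In that fit Atr was −0.02, Prkdc −0.01 and Atm −0.14, while Fancl was −0.43. What part base composition has in these differences was not tested.

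**Figure D5:**
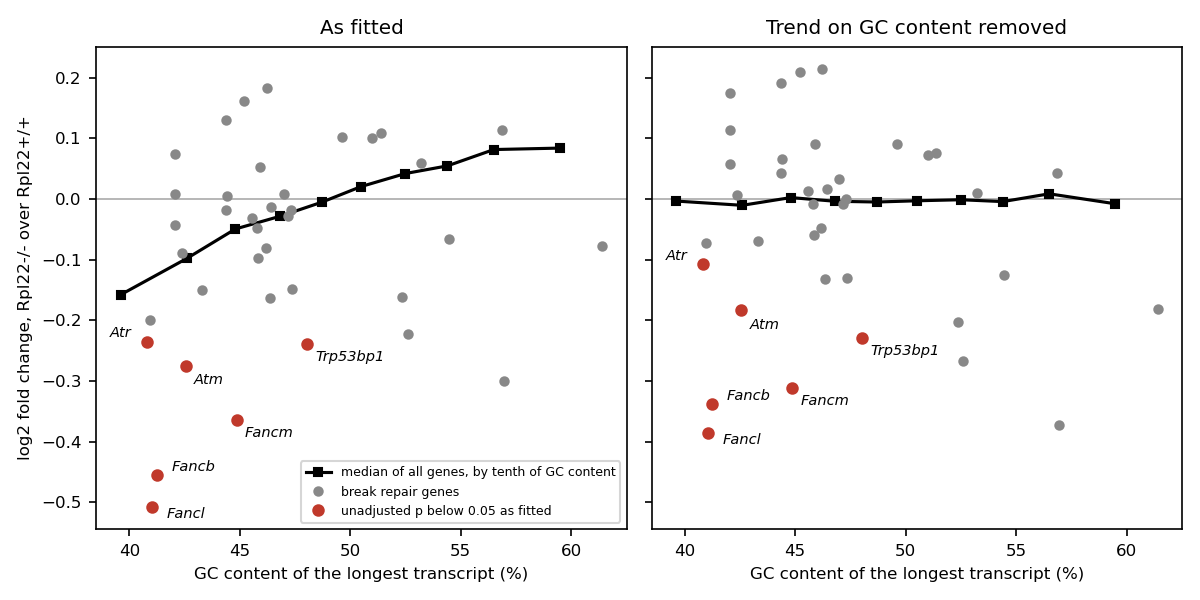
Log2 fold change of the 38 genes (dots) against GC content of the longest transcript in percent, as fitted (left) and with each library's trend on GC content removed (right); red dots are the 6 genes with an unadjusted p below 0.05 as fitted, and black squares the median of all genes in each decile of GC content. The black line climbs from −0.16 to 0.08 at left and is flat at right, where Fancl, at −0.39, and the other red dots remain below it.

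Of 63 further genes of break repair and checkpoint signalling, 33 had positive and 30 negative values, the median was 0.00, and 0 passed the adjusted test of edgeR. At an unadjusted p below 0.05, 5 were higher and 2 lower, beside 11.6% and 10.7% of all genes. DESeq2 and limma-voom each called 1 of them, Etaa1, whose product activates ATR alongside TOPBP1. It had 485, 513 and 670 reads in Rpl22-/- replicates 1 to 3 and 776, 700 and 536 in Rpl22+/+ replicates 1 to 3, and after scaling all Rpl22-/- libraries were below all controls, with a value of −0.38 (SE 0.11, adjusted p = 0.0516 in edgeR's quasi-likelihood test). The 5 on the higher side were Babam1, a part of the BRCA1-A complex, at 0.34, the nuclease subunit Eme1 at 0.32, the shieldin subunit Mad2l2 at 0.32, Faap24 and the topoisomerase Top3a at 0.25.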

How the data were processed

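Per the submitters' processing notes, the authors aligned with TopHat2 2.1.1 to mm10 and counted reads per gene with HTSeq. The deposited values are these raw counts, whole numbers that were not normalized. Neither the strand setting nor the annotation of the counting is given in the sources used here. HTSeq's 5 rows of unassigned totals, 58.6% to 60.9% of each library, were left out of library sizes and tests, and 0 sample columns went unused. At this depth the 38 genes had between 48 and 4318 reads per library.

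The counts were compared with edgeR 4.0.16 under R 4.3.3. Its filterByExpr step, at a minimum count of 10, passed 14004 genes, TMM set the scale, and the quasi-likelihood test compared 3 Rpl22-/- with 3 Rpl22+/+ samples, grouped by their labels, with Benjamini-Hochberg adjustment over all genes. The study's own methods use DESeq2. On simulated counts of 13858 genes, this test called 75.5% of 98 genes changed by 1 log2 unit, 98% of 99 changed by 2, and 13 unchanged genes. Smaller changes, such as those of all the genes described here, were not simulated, so the power for them was not measured. Alternatives used DESeq2 1.42.0, limma-voom (limma 3.58.1), relative log expression or upper-quartile factors, library size alone, no filter (at least 1 count in any library), at least 10 counts in every library, a term for the replicate number, lowess trends (span 0.3) on length or GC content removed singly or together, and each library left out in turn. Removing both trends without the replicate term, and TPM over joined exons, were added after seeing the data.

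The members and lists were chosen with earlier results of these data known. Named genes are all 38 members, with full values for those past the threshold and the 3 smallest p-values of each role group, and of each other list the genes past the threshold (at most 5) and the 2 smallest p-values. The core complex partners, Eme1, Mad2l2, Top3a and the genes overlapping members were named after their values were seen, and results for some genes within the rule or the lists are not reported here. Further lists covered break repair and checkpoint genes, mismatch, base excision and nucleotide excision repair, p53-induced genes, S phase, G2 and mitosis, HSC markers and markers of cells outside the gate. Of the further break repair genes, 5 stand in the table under older symbols.

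Lengths, GC content and positions came from GENCODE vM21 (GRCm38), in which 29042 of 34573 symbols matched directly and 1861 through an older symbol. Transcripts were aligned with BLAST 2.17.0 (at least 95% identity over 200 bases), which found overlapping neighbours of members but no separate copies. Promoters are RefSeq windows. No window was listed for 6 members, and 3 members had more than 1, of which the first was used. Exact permutation tests used numpy 2.4.6, tables pandas 2.3.3, and figures matplotlib 3.10.9, all in Python 3.11.15.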

Additional observations from a re-analysis of the deposited data

How the results depend on the processing

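The median log2 fold change over the 38 genes moved by less than the spread between replicates in every alternative, between −0.0973 without Rpl22-/- replicate 3 and −0.0043 without Rpl22-/- replicate 1 or with the GC trend removed. The number of the 38 called moved from 1 to 4 with library size alone (Atm, Atr, Fancl, Trp53bp1), to 2 with no filter (Fancl, Fancm), and to 0 with the GC trend removed and with both trends removed, with or without the replicate block. With 1 library left out it was 0 to 1. The number called among all genes moved from 780 to 1422 with no filter, 504 with the GC trend removed and 506 with both trends removed, and with 1 library left out ran from 127, without Rpl22-/- replicate 3, to 1720, without Rpl22-/- replicate 1. It was 1056 with DESeq2 and 850 with library size alone. The share of calls that were higher was 58.8%, and 43.4% with library size alone. Of the 63 further genes, 0 were called, but 1 with upper-quartile factors, DESeq2, limma-voom, at least 10 counts in every library or the replicate block (Etaa1 each time), 2 with library size alone or no filter, 1 with the GC trend removed (Rpa3), and 0 to 4 with 1 library left out. The cause was not tested. Over 18 alternatives and 38 genes, 673 of 684 values kept their side of the threshold with no called value reversed, 7 lost the call, all of them Fancl, and 4 gained it. The sign was the same in every alternative for 23 of the 38 genes.

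With the replicate block, the number of the 38 called was 1, their median −0.047 and the number called among all genes 904. Samples with the same number correlated at −0.1, 0.0506 and 0.0446 in their deviations from the genotype means, beside −0.164 to 0.126 for samples with different numbers. With 3 samples per genotype, these values cannot decide whether same-numbered samples share more than a number. With 3 libraries a genotype, changes as small as those of most of these genes could not be told from zero, and low counts limit Rad51c, Lig4 and Nhej1 most.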

Other observations

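Other repair pathways and the p53 response were read from the same fit. Of all genes in it, 51.3% had negative values and 5.57% passed the adjusted test. At an unadjusted p below 0.05, 10.7% of all genes were lower and 11.6% higher. All 7 mismatch repair genes had negative values, with a median of −0.03, and 0 passed the adjusted test of edgeR, DESeq2 or limma-voom or an unadjusted p of 0.05. The smallest p belonged to Pms1 (−0.24, adjusted p = 0.281 in edgeR's quasi-likelihood test) and the next to Msh3 (−0.11). Of 18 base excision repair genes, 10 values were positive, the median was 0.06 and 0 passed with any of the 3 tools, with 2 higher at an unadjusted p below 0.05. These were Tdg, a thymine glycosylase, at 0.27, and Apex1, which cuts at sites that have lost their base, at 0.28. Of 18 nucleotide excision repair genes, 11 values were positive, the median was 0.03 and 0 passed with any of the 3 tools, with 4 higher at an unadjusted p below 0.05, the smallest p belonging to the nuclease subunit Ercc1 at 0.37.

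Of 13 genes that p53 induces in checkpoint and repair responses, 2 passed and both rose. Cdkn1a, which encodes the cell cycle inhibitor p21, had 121, 186 and 175 reads in Rpl22-/- replicates 1 to 3 and 30, 21 and 25 in Rpl22+/+ replicates 1 to 3, which is 2.54 on the log2 scale (SE 0.25, adjusted p = 7.56e-05 in edgeR's quasi-likelihood test). Ccng1, another p53 target, rose by 0.57 on the same scale (adjusted p = 0.00444 in edgeR's quasi-likelihood test). The median of the 13 was −0.01, and the repair genes among them gave −0.08 for Ddb2, 0.03 for Xpc, −0.24 for Rrm2b and −0.01 for Polh, none past the test.

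Of 19 S phase genes 14 values were positive, the median was 0.07 and 0 passed with any of the 3 tools, with Gins2 (0.19) alone at an unadjusted p below 0.05. Of 17 G2 and mitosis genes 12 values were positive, the median was 0.08 and 0 passed in edgeR or limma-voom, with 4 higher and 1 lower at an unadjusted p below 0.05. DESeq2 called 1 of these, the mitotic kinase Plk1 (0.53, adjusted p = 0.0592 in edgeR's quasi-likelihood test). Of the 12 HSC markers, on the log2 scale Gata2 rose by 0.39 and Fgd5 fell by 0.41 (adjusted p = 0.019 and 0.0308 in edgeR's quasi-likelihood test). All 5 megakaryocyte genes had positive values, and 4 passed the adjusted test of edgeR. These were Gp1bb at 0.82, Itga2b at 0.51, Gp9 at 0.46 and Pf4 at 0.70, of which DESeq2 called the first 3. The remaining gene, Ppbp, gave 0.63 (adjusted p = 0.104 in edgeR's quasi-likelihood test), with all Rpl22-/- libraries above all Rpl22+/+ libraries. The summed level of 7 neutrophil and monocyte genes was 154 CPM in Rpl22-/- replicate 2 and 27.6 to 53.9 CPM in the other libraries. Summed over 5 erythroid genes it was 26.7 to 32.3 CPM, and over 6 progenitor and lymphoid genes 42.4 to 48.9 CPM in Rpl22-/- HSCs and 50.4 to 63.8 CPM in Rpl22+/+ HSCs. No gene of these 3 lists passed with any of the 3 tools, and 2 neutrophil genes, Mpo and Elane, and the progenitor gene Flt3 (−0.36) had an unadjusted p below 0.05 in edgeR.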
